A study of Homo sapiens with 30 samples.

Results

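The 6 giant PI3K-like kinase genes were PRKDC, ATM, ATR, MTOR, SMG1 and TRRAP. They were the rows of the deposited count table that carried these symbols, 6 of 60664 gene rows. The rows were taken by symbol, but the members were chosen with earlier results of these data known. Their RNA was measured by sequencing in HEK293 cells, a human embryonic kidney line, that carried a GFP-tagged copy of TIA1a. TIA1 binds RNA and is a core component of stress granules, the assemblies that hold untranslated mRNA in stressed cells. The tagged protein was either wild-type (WT) or bore the Welander distal myopathy change (WDM), and 3 libraries were made for each of 10 groups. In the cytosol fraction, WT and WDM cells were untreated, given tetracycline, or given tetracycline and 0.5 mM sodium arsenite for 60 minutes. In the granule fraction, WT and WDM cells were given tetracycline alone or tetracycline and the same arsenite dose. The design text describes the isolation, a pellet of granule cores pulled down through the GFP tag, for arsenite-treated cells, and what the pull-down held in cells without arsenite is not given in the sources used here. The libraries called cytosol are described in the protocol as cellular extracts. All 10 groups therefore came from transgene-carrying Flp-In T-REx cells, in which tetracycline switches on the inserted gene, and every granule group had received tetracycline. No library of the maternal line without a transgene and no pull-down without tetracycline was analysed here, so binding to the beads alone was not measured. WT and WDM are 2 separately made cell lines, so the TIA1 change and any other difference between the lines cannot be told apart. The labels do not say whether replicates were separate cultures, so the p-values measure the spread between these libraries, which may be technical.

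The 6 genes encode very large proteins of a single family that share a kinase domain related to that of the lipid kinases. DNA-PKcs (from PRKDC) acts in DNA end joining, ATM in the response to double-strand breaks, ATR in replication stress, mTOR in growth control and SMG1 in nonsense-mediated mRNA decay, where it phosphorylates UPF1. TRRAP lacks kinase activity and serves as a scaffold of histone acetyltransferase complexes. The proteins depend on the TELO2, TTI1 and TTI2 co-chaperone complex for their assembly, and their long mRNAs are of interest here because TIA1 binds U-rich RNA and long transcripts are known to collect in stress granules.

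The genes lie on 6 chromosomes and are all long. On GRCh38, with GENCODE v44 models, ATM spans chr11:108223044-108369102 (plus strand, 63 exons in its reference transcript) and ATR chr3:142449007-142578733 (minus, 47 exons). MTOR spans chr1:11106535-11262551 in the deposited table (minus, 58 exons), SMG1 chr16:18804860-18926408 (minus, 63 exons) and TRRAP chr7:98877933-99050831 (plus, 73 exons). Their reference transcripts measured 13.46 kb for PRKDC, 12.91 kb for ATM, 8.158 kb for ATR, 8.721 kb for MTOR, 16.06 kb for SMG1 and 12.68 kb for TRRAP. Exons of other genes on the opposite strand covered 7.52% of the exon sequence of ATR (EIF2AK1P1) and 3.68% of that of TRRAP (SMURF1), and a same-strand lncRNA covered 1.825% of that of ATR. Every other overlapping gene found covered less than SMURF1 did, and the strand setting of the counting is not given in the sources used here.

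Since TIA1 binds U-rich RNA, the longest run of U in each reference transcript is shown for 5 members, as 30 bases of GRCh38 on the transcript strand, 5′ to 3′, with the run in capitals and T standing for U. The windows are ATM, exon 63 of 63, 3′ UTR, chr11:108368203-108368232 (plus), ATR, coding, exon 17 of 47, chr3:142542701-142542730 (minus), MTOR, 3′ UTR, exon 58 of 58, chr1:11107441-11107470 (minus), SMG1, 3′ UTR, exon 63 of 63, chr16:18808589-18808618 (minus), and TRRAP, 3′ UTR, exon 73 of 73, chr7:99013199-99013228 (plus).
ATM: ttataaaagaTTTTTTTTTTgtaattttag
ATR: ggcattttggcTTTTTTTaacatgcagtta
MTOR: gtgcccatcacgTTTTTTctgaggcttttg
SMG1: tatagtgtgcaTTTTTTTTggaggtcattc
TRRAP: acagtgtgaTTTTTTTTTTTagaataaata
The motif searched was TTTTT, read as runs of at least 5 T on the transcript strand only. ATR held 3.19 runs per kb and ATM 2.94, against 2.12 in SMG1, 1.34 in TRRAP, 1.26 in PRKDC and 0.803 in MTOR. Such a run was present in 87.8% of 13166 reference transcripts of tested genes and in 98.9% of the 1283 that were 8 kb or longer, whose median density was 2.41 runs per kb. ATR and ATM therefore lay above that median and the other members below it. A run is a feature of the letters and not a measured TIA1 site.

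Total counts ran from 5906167 to 27419145 per library, and the members together took 0.233% to 0.434% of the counts in cytosol libraries and 0.517% to 1.12% in granule libraries. All 6 members passed the low-count filter in every fit, and the smallest member count in any library was 1162 (ATR). The cells are labelled epithelial, and the epithelial genes KRT8, KRT18, KRT19 and EPCAM had cytosol medians of 143, 121, 77.7 and 108 CPM (counts scaled to a common library size, a level and not a difference). CDH1, a further epithelial marker, had a median of 7.78 CPM. The kidney lineage markers PAX2, LHX1, PAX8 and CDH16 were at 3.37, 1.58, 0.0568 and 0 CPM, and the neuronal filament genes NEFL, INA and NEFM at 145, 16.6 and 0.15 CPM. The cytosol libraries also held nuclear-retained RNAs such as NEAT1 and MALAT1, whose level differed between libraries and between fractions.

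Levels between genes were compared as CPM per kb of exon. PRKDC had the highest level in all 10 groups. In untreated WT cytosol it stood at 72.1 ± 3.90 CPM per kb (SD, n = 3), followed by MTOR at 20.8 ± 1.16, TRRAP at 9.87 ± 0.628, SMG1 at 9.50 ± 0.708, ATR at 5.30 ± 0.220 and ATM at 4.48 ± 0.236. The libraries of TRRAP and SMG1 overlapped on this scale, and those of the other neighbours in the order did not. In WT granules with arsenite the order of the middle genes was another. SMG1 stood at 52.9 ± 11.7 CPM per kb and TRRAP at 50.2 ± 2.86, both above MTOR at 37.0 ± 3.78, while PRKDC stood at 239 ± 52.0. ATM at 9.87 ± 3.31 and ATR at 7.77 ± 1.73 came last and overlapped. Dividing by the longest annotated transcript instead of all exon sequence placed ATR, at 17.7 CPM per kb in untreated WT cytosol, above TRRAP at 15.6 and SMG1 at 14.9, and left PRKDC first at 156 and ATM last at 13.4.

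**Figure D1:**
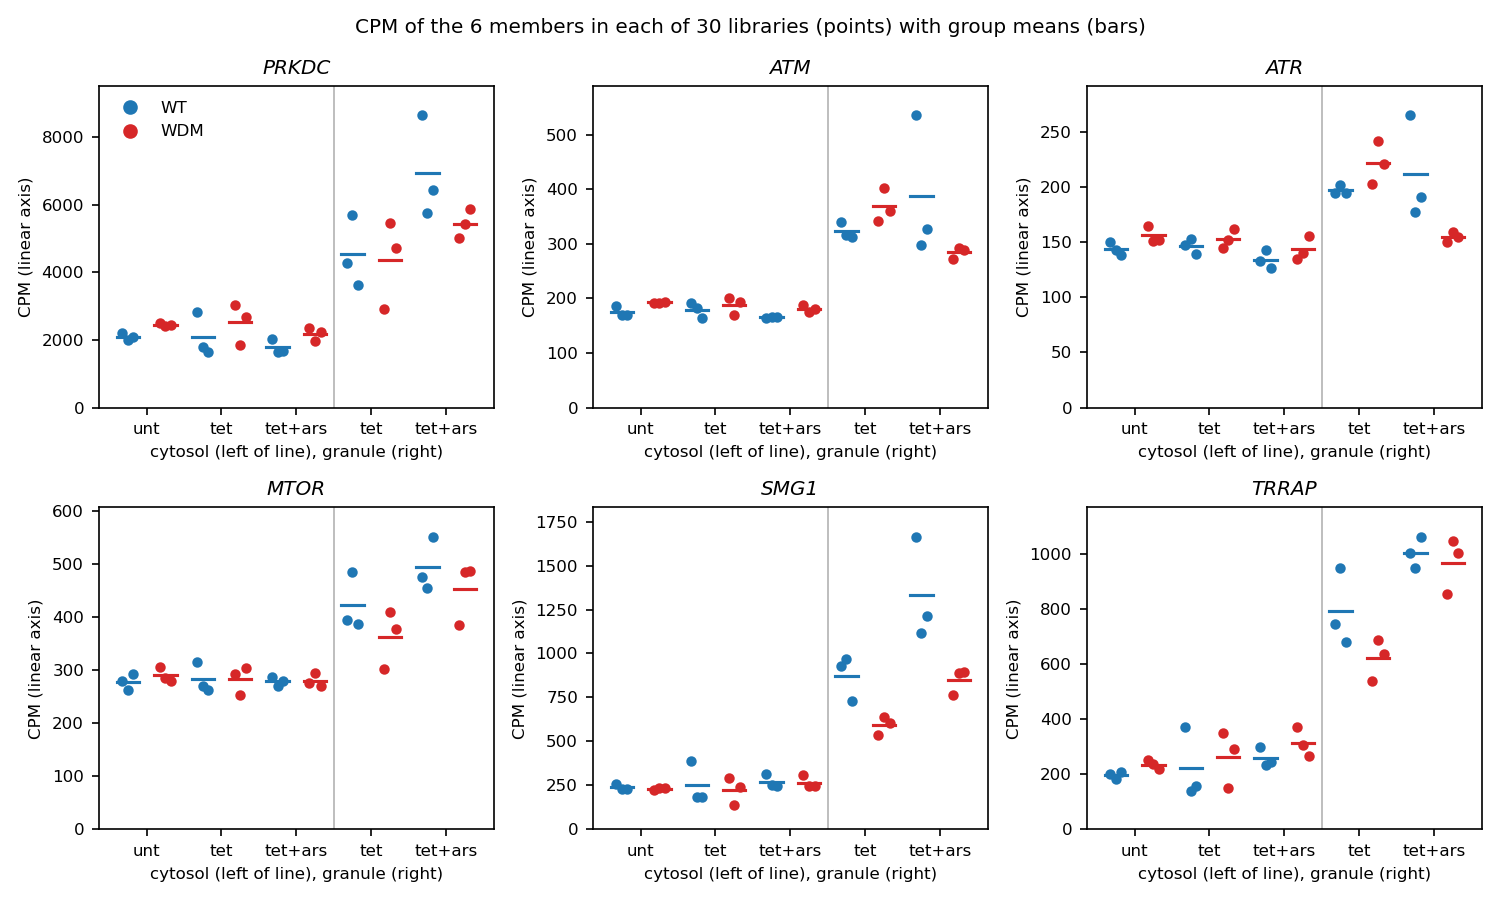
CPM of each member in every library (points, 3 per group) with the group mean (bar), WT in blue and WDM in red, untreated (unt), with tetracycline (tet) or with tetracycline and arsenite (tet+ars). SMG1 lay between 137 and 389.5 CPM in the cytosol and between 537 and 1665 CPM in the granule fraction, while ATR overlapped between the fractions.

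The granule fraction held more of these RNAs, relative to other RNAs, than the cytosol. The 4 comparisons asked which RNAs were over-represented with the granules of WT and WDM cells, without and with arsenite. All 6 members were called higher (edgeR, Benjamini-Hochberg adjusted p under 0.05) in tetracycline-treated WT, in tetracycline-treated WDM and in arsenite-treated WT cells, and 5 of 6 in arsenite-treated WDM cells. Calls in either direction were common, at 75.7%, 71.1%, 70.5% and 72% of 18141 genes in those comparisons, and calls of higher genes alone made up 39.5%, 35.8%, 35% and 36.3%. The median log2 difference of the members was 1.09, 0.88, 1.48 and 0.91, beside 0.07, 0.02, 0.05 and 0.06 over all genes tested. In bulk fractions a higher share of reads cannot be told apart from a loss of other RNAs, since every value is relative to the rest of its library. Nuclear-retained RNAs were higher in the granule fraction as well, where 6 of them summed to 2451 to 3508 CPM against 291 to 911 CPM in the cytosol. NEAT1 had medians of 2057 and 151 CPM in granule and cytosol libraries, and KCNQ1OT1 85.9 and 10.3 CPM. The median log2 difference of the 5 tested was 1.85 and 1.23 with tetracycline in WT and WDM cells and 1.24 and 0.56 with arsenite, with 4, 3, 3 and 3 called higher. Of 13 mitochondrial RNAs, 5 and 12 were called higher with tetracycline in WT and WDM cells, and 0 and 3 with arsenite. The part of either class in the members' differences was not tested.

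SMG1, the kinase of nonsense-mediated decay, had one of the largest differences. Its cytosol CPM were 389.5, 180.5 and 181 in tetracycline-treated WT and 289.8, 137 and 239 in tetracycline-treated WDM libraries, and 316, 249.8 and 245 and 308, 243 and 244 with arsenite. The granule CPM were 926, 966 and 729.5 in WT and 537, 637 and 602 in WDM with tetracycline, and 1665, 1114 and 1216 and 765, 887 and 892 with arsenite. Every granule library lay above every cytosol library. The log2 differences, granule over cytosol, were 1.90 ± 0.251 (SE) in WT and 1.42 ± 0.248 in WDM cells with tetracycline, and 2.19 ± 0.253 and 1.58 ± 0.248 with arsenite (largest edgeR adjusted p 1.19e-05). SMG1 in untreated cytosol stood at 259, 227 and 231 CPM in WT and 219.9, 235 and 234 in WDM libraries.

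TRRAP, the scaffold without kinase activity, behaved likewise. Cytosol CPM were 369.7, 138 and 156 in WT and 349.7, 148 and 289.5 in WDM libraries with tetracycline, and 298, 231 and 243 and 372, 304 and 264 with arsenite. In granules they were 746, 947 and 679.9 in WT and 538, 687 and 635 in WDM with tetracycline, and 1001, 947 and 1061 and 851, 1047 and 1001 with arsenite. Again no granule library fell as low as the highest cytosol library. The log2 differences were 1.94 ± 0.289 and 1.24 ± 0.284 with tetracycline in WT and WDM cells, and 1.86 ± 0.288 and 1.53 ± 0.285 with arsenite (largest edgeR adjusted p 0.000408).

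PRKDC, which encodes the catalytic subunit of DNA-PK, was the most abundant member in both fractions. The gene spans chr8:47773111-47960178 on GRCh38 (minus strand, 86 exons). Its cytosol CPM were 2830, 1795 and 1636 in WT and 3048, 1852 and 2688 in WDM libraries with tetracycline, and 2034, 1654 and 1687 and 2347, 1962 and 2239 with arsenite. In granules they were 4272, 5689 and 3632 in WT and 2917, 5457 and 4734 in WDM with tetracycline, and 8653, 5768 and 6427 and 5015, 5424 and 5891 with arsenite. With tetracycline alone the fractions overlapped in WDM cells, where the lowest granule library stood at 2917 and the highest cytosol library at 3048 CPM. The log2 differences were 1.22 ± 0.239 and 0.79 ± 0.237 with tetracycline in WT and WDM cells, and 1.85 ± 0.243 and 1.23 ± 0.239 with arsenite (largest edgeR adjusted p 0.00406).

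MTOR, the growth-control kinase, differed less. Its cytosol CPM were 315, 271 and 263 in WT and 293, 254 and 304 in WDM libraries with tetracycline, and 286, 270.4 and 279 and 275, 295 and 271 with arsenite. Granule CPM were 394, 485 and 386 and 303, 409.5 and 378 with tetracycline, and 476, 456 and 552 and 386, 486 and 487 with arsenite, in WT and WDM cells. The fractions overlapped in tetracycline-treated WDM cells alone, by 302.6 against 304 CPM. There the log2 difference was 0.36 ± 0.14 (edgeR adjusted p 0.0221), and it was not called without the low-count filter (0.0673) or in 3 of the 6 fits that each left out 1 library (cytosol replicate 2, granule replicate 2 or 3). In the other combinations it was 0.68 ± 0.141 in WT with tetracycline, 0.72 ± 0.141 in WT with arsenite and 0.60 ± 0.14 in WDM with arsenite.

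ATM and ATR, the kinases of the DNA damage response, differed from each other in how far the granule levels stood above the cytosol. ATM CPM in the cytosol were 191, 182 and 164 in WT and 201, 170.2 and 194 in WDM libraries with tetracycline, and 165, 166 and 167 and 187, 175 and 181 with arsenite. In granules ATM stood at 341, 317 and 312 and 341, 403 and 361 with tetracycline, and at 535, 298 and 328 and 273, 292 and 289 with arsenite, in WT and WDM cells. All granule values were above all cytosol values for ATM, with 1 arsenite-treated WT granule library, replicate 1, far above the others at 535 CPM. The log2 differences for ATM were 0.95 ± 0.15 in WT and 0.97 ± 0.15 in WDM with tetracycline, and 1.11 ± 0.15 and 0.56 ± 0.148 with arsenite.

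ATR CPM in the cytosol were 148, 153 and 139 in WT and 145, 152 and 162 in WDM libraries with tetracycline, and 133, 143 and 126 and 134, 140.2 and 156 with arsenite. In granules ATR stood at 194, 202 and 195 and 202, 242 and 221 with tetracycline, and at 265, 178 and 192 and 151, 159 and 155 with arsenite, in WT and WDM cells. Granule values were higher in each combination except arsenite-treated WDM cells, where the fractions overlapped. The log2 differences for ATR were 0.53 ± 0.125, 0.54 ± 0.125 and 0.55 ± 0.125 in tetracycline-treated WT, tetracycline-treated WDM and arsenite-treated WT cells, and 0.02 ± 0.124 in arsenite-treated WDM cells (edgeR adjusted p 0.899). That last value corresponds to a ratio of 1.01, with 0.93 to 1.1 as 1 SE on either side.

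**Figure D2:**
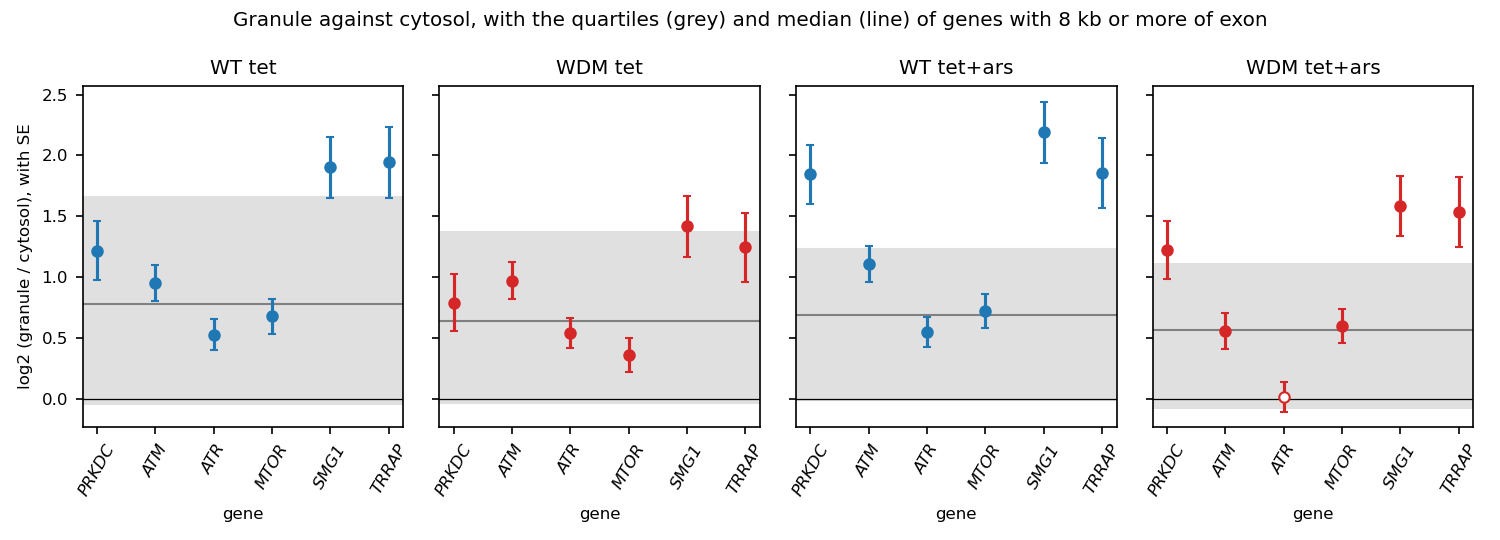
Log2 difference of granule over cytosol for each member (point, SE as bar; filled where called by edgeR), with the median (line) and quartiles (grey band) of the 3970 tested genes with 8 kb or more of exon sequence. SMG1 and TRRAP sit above the band's median in all 4 panels, and ATR sits below it in all 4, from 0.02 to 0.55.

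Long RNAs as a class were over-represented in the granule fraction, so the members were read against genes of like length. The 3970 tested genes with 8 kb or more of exon sequence had median log2 differences of 0.78 and 0.64 with tetracycline in WT and WDM cells and 0.69 and 0.56 with arsenite. Within that class SMG1 stood at the 98.7th percentile and TRRAP at the 94.5th in arsenite-treated WT cells, and PRKDC at the 94.3rd. In arsenite-treated WDM cells the same genes stood at the 91.3rd, 90.1st and 79.8th percentiles. ATM, MTOR and ATR stood at the 69.2nd, 51.7th and 44th percentiles in arsenite-treated WT cells, so ATR lay below the middle of the long genes. With tetracycline alone the members were closer together. SMG1, TRRAP and PRKDC stood at the 80.1st, 80.8th and 63.8th percentiles in WT cells and at the 76th, 71.5th and 55.7th in WDM cells, where PRKDC was below ATM at the 62.5th. When each library's trend with exon length was removed, ATM and ATR turned negative in all 4 combinations, MTOR did so in all 4 as well, and PRKDC did in both tetracycline combinations. ATR was then called lower in all 4 (largest edgeR adjusted p 0.00146). ATM was called lower in all but arsenite-treated WT cells (0.451 there, 0.00881 or less elsewhere). MTOR was called lower in tetracycline-treated WDM cells alone (0.0197), and PRKDC in neither tetracycline combination (0.415 in WT, 0.0655 in WDM). PRKDC in arsenite-treated WDM cells fell to 0.34 and lost its call (edgeR adjusted p 0.146), and was at 0.22 (0.303) with the longest-transcript trend. SMG1 and TRRAP stayed positive under that correction, but in tetracycline-treated WDM cells they fell to 0.30 and 0.29 with edgeR adjusted p of 0.166 and 0.26.

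The runs of U did not follow the order of enrichment among the members. MTOR had the fewest runs per kb and ATR the most, and both had small differences, while SMG1, TRRAP and PRKDC had the larger differences with densities at the 41.8th, 22.4th and 20.7th percentiles of transcripts of 8 kb or more. This is a description of 6 genes.

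Within the granule fraction, arsenite-treated libraries were set against tetracycline-treated ones in each line. SMG1 was called higher with arsenite in both lines, and TRRAP higher and ATR lower in WDM cells alone. In WT cells 1 of 6 members was called (background 30.6% of 18366 genes), and in WDM cells 3 of 6 (background 36.3%), so the counts were near the share of all genes. SMG1 rose in both lines, by 0.52 ± 0.181 in WT (edgeR adjusted p 0.029) and 0.49 ± 0.181 in WDM cells (edgeR adjusted p 0.0354), with no overlap between the groups in either line. TRRAP rose in WDM cells by 0.61 ± 0.172 (edgeR adjusted p 0.0066), from 620 ± 75.6 to 967 ± 102 CPM (SD, n = 3). In WT cells its difference was 0.26 ± 0.171 and was not called. PRKDC in WT cells differed by 0.53 ± 0.232 without passing the test (edgeR adjusted p 0.0798), though its 3 arsenite libraries lay above its 3 tetracycline libraries, and it was called by DESeq2 (0.0373) and without the low-count filter (0.0176). The calls of SMG1 were lost without the 4 tetracycline libraries that stood apart, at 0.38 (edgeR adjusted p 0.134) in WT and 0.43 (0.0635) in WDM cells, and in fits that each left out 1 library. Those were 2 of 6 in WT (tetracycline replicate 3, arsenite replicate 1, adjusted p up to 0.181) and 5 of 6 in WDM cells (all but arsenite replicate 1, up to 0.101).

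ATR moved the other way in WDM granules. It fell from 222 ± 19.8 to 155 ± 4.31 CPM, a log2 difference of -0.55 ± 0.156 (edgeR adjusted p 0.00728), and the groups did not overlap. In WT granules the ATR difference was 0.02 ± 0.155. ATM in WDM granules had a log2 difference of -0.40 ± 0.179 that did not pass (edgeR adjusted p 0.0792), also without overlap. The test of whether the arsenite difference itself differed between the lines called 0 members (background 0%), with -0.57 ± 0.22 for ATR (edgeR p 0.0157, adjusted 0.301) and -0.58 ± 0.253 for ATM (p 0.0303, adjusted 0.347). At an unadjusted p under 0.05 these 2 members passed, as did 12.7% of all genes. The difference in ATR enrichment between arsenite and tetracycline was called in WDM cells, 1 of 6 members (background 24.2% of 18141 genes), at -0.52 ± 0.176 (edgeR adjusted p 0.0301). In WT cells 0 of 6 were called (background 31.4%), with ATR at 0.02 ± 0.176. That WDM call was lost in 8 of 12 fits that each left out 1 WDM library (any tetracycline cytosol library, arsenite cytosol replicate 3, tetracycline granule replicate 2 or 3, arsenite granule replicate 1 or 3), with adjusted p from 0.0182 to 0.111 over the 12, and without the low-count filter (edgeR adjusted p 0.294). With the length trend removed it was lost too, at -0.17 (edgeR adjusted p 0.548). Over all genes the median change of enrichment in WDM cells was -0.17.

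Differences with arsenite in WDM granules moved with base composition over all genes, and its part in the ATR and ATM differences was not tested. Of the longest annotated transcripts, ATM and ATR had 39.4% and 39.7% G and C, SMG1 43.1%, PRKDC 45.1%, MTOR 52% and TRRAP 52.7%. With arsenite in WDM granules, the tested genes under 40% GC with 8 kb or more of exon had a median log2 difference of -0.26. Those at 40 to 45%, 45 to 50% and 50% or more had -0.12, 0.06 and 0.28. SMG1, at 43.1%, rose there by 0.49. In WT granules the medians under 40% and at 50% or more were -0.02 and -0.06. For the change of enrichment with arsenite in WDM cells, the medians of those 8 kb classes were -0.46 and 0.15. After each library's trend with GC content was removed, ATR in WDM granules stood at -0.31 (edgeR adjusted p 0.0623), and its change of enrichment with arsenite at -0.28 (adjusted p 0.196). TRRAP and SMG1 kept their calls in WDM granules under that correction.

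WT and WDM granules differed in SMG1. The question was whether the disease form of TIA1 carried another set of RNAs. SMG1 was the 1 member of 6 called with tetracycline (background 5.55% of 18366 genes) and the 1 of 6 called with arsenite (background 7.95%), lower in WDM both times. The means were 592 ± 51.1 against 874 ± 127 CPM with tetracycline and 848 ± 72.1 against 1331 ± 293 CPM with arsenite, WDM against WT. The log2 differences were -0.62 ± 0.181 (edgeR adjusted p 0.0416) and -0.65 ± 0.181 (0.0243), and every WDM library lay below every WT library. The calls were near the threshold. With tetracycline the adjusted p was 0.0527 with DESeq2-type size factors (RLE), 0.066 with replicate number as a block and 0.0634 with the length trend removed, and 5 of 6 fits without 1 library lost it (each library but WT replicate 3). With arsenite it was 0.0528 with the length trend and 0.061 with the GC trend removed, and 4 of 6 such fits lost it (WT replicate 1 and each WDM library). Within a library, SMG1 counts per ATM count ran from 2.34 to 3.05 in WT and from 1.57 to 1.67 in WDM granules with tetracycline, and from 3.11 to 3.74 and from 2.80 to 3.09 with arsenite. In untreated cytosol the ratio was lower in WDM as well, from 1.15 to 1.23 against 1.33 to 1.39 in WT. The lines overlapped in cytosol with tetracycline and with arsenite.

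The other members did not pass this test between the granules of the lines. ATR with arsenite stood at -0.45 ± 0.155 (edgeR adjusted p 0.073) and ATM at -0.44 ± 0.179 (0.124), both with all WDM libraries below all WT libraries. DESeq2 called ATR there (adjusted p 0.0376), and ATR and ATM were called when WT replicate 2 was left out (edgeR adjusted p 0.0422 and 0.0466). Without WT replicate 1, the library with ATM at 535 CPM, they stood at -0.27 (0.404) and -0.15 (0.696). TRRAP with tetracycline differed by -0.40 ± 0.172 (edgeR adjusted p 0.202) with overlap. The tests of whether enrichment over the cytosol differed between the lines called 0 of 6 members, both with tetracycline (background 0.00551%) and with arsenite (background 0.00551%). At an unadjusted p under 0.05, ATM and ATR passed with arsenite, at -0.55 ± 0.209 (edgeR p 0.0138) and -0.53 ± 0.176 (p 0.00534), and 0 members with tetracycline. Of all genes, 6.61% and 5.12% passed that level with arsenite and with tetracycline. These line differences moved with base composition too. Among tested genes with 8 kb or more of exon under 40% GC, as ATM and ATR are, the median in arsenite granules was -0.20. At 50% GC or more it was 0.22. For the line difference in enrichment with arsenite, the medians of those classes were -0.26 and 0.17. The part of base composition in the ATM and ATR line differences was not tested.

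Genes around SMG1 were lower in WDM cells too. Of 18 tested genes that start within 1 Mb of SMG1, 10 were called lower and 0 higher in untreated WDM cytosol. Over all genes, 5.6% were called lower and 4.19% higher there. All 18 neighbour values were negative, and their median was -0.50. SMG1 itself differed there by -0.11 ± 0.272 (edgeR adjusted p 0.836). COQ7, a gene of coenzyme Q synthesis, had a log2 difference of -0.70, TMC7, a membrane protein gene, -0.85 and RPS15A, a ribosomal protein gene, -0.50 in that comparison. In granules 5 of 22 neighbours were called lower with tetracycline (median -0.50), beside 2.95% of all genes. With arsenite 7 of 22 were called lower (median -0.34), beside 3.84% of all genes, and 0 neighbours were called higher in either comparison. The nearest called with arsenite was ENSG00000260017, an antisense lncRNA whose exons cover 0.68% of the exon sequence of SMG1, at -1.56. For the other members the neighbour medians in untreated cytosol lay between -0.10 and 0.09. Whether the SMG1 difference in granules has to do with that chromosome region was not tested.

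**Figure D3:**
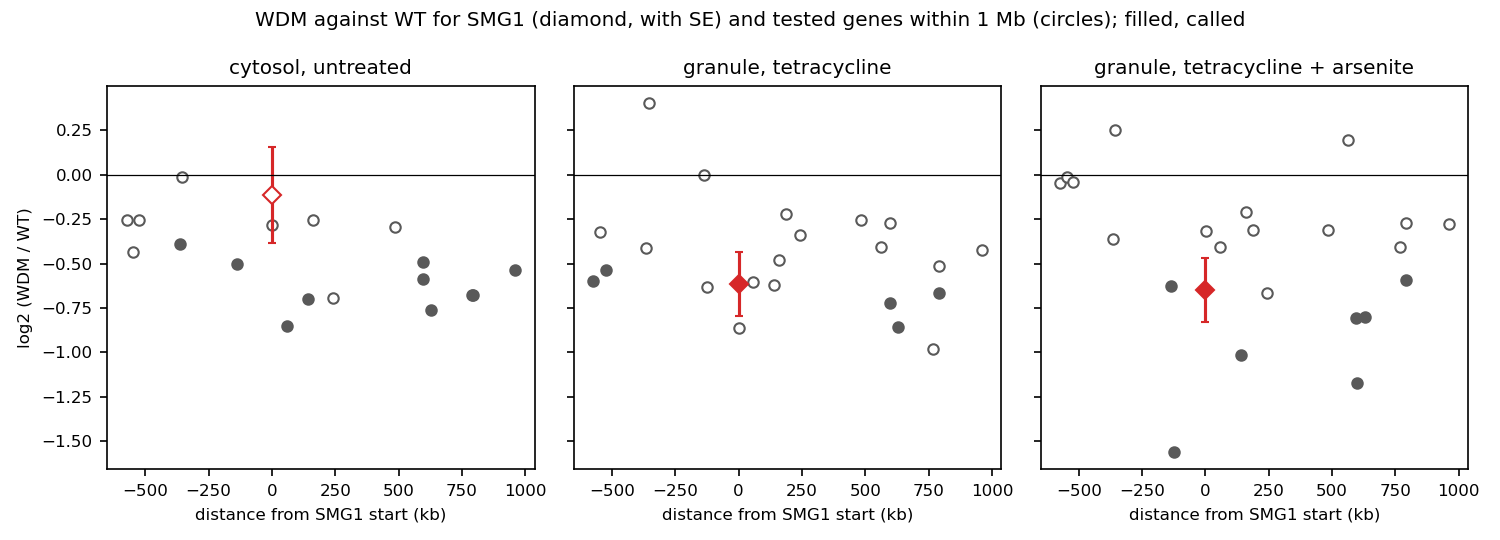
Log2 difference of WDM over WT for SMG1 (red diamond with SE) and the tested genes that start within 1 Mb (grey circles), by distance from the SMG1 start in kb; filled symbols were called by edgeR. All 18 neighbours are below 0 in untreated cytosol, with SMG1 at -0.11, and SMG1 lies at -0.62 and -0.65 in the granule panels.

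SMG1 has a family of near-identical pseudogenes on the same chromosome, so reads between them and SMG1 are uncertain. Of 7 listed, 6 were tested and SMG1P2 had 0 counts in every library. The 6 were all higher in granules with tetracycline in both lines, by 0.89 to 2.33 in WT (SMG1P7 the lowest and SMG1P3 the highest) and with a median of 1.80 in WDM cells. Of all genes, 39.5% and 35.8% were called higher there. In the cytosol, where SMG1 was not called, 5 of 6 rose with arsenite in both lines (13.7% and 14.1% of all genes in WT and WDM cells). Their medians were 0.70 in WT and 0.76 in WDM cells. SMG1P1 rose in the cytosol by 0.88 in WT (edgeR adjusted p 1.96e-05), while SMG1 differed by 0.14 ± 0.271. In WDM granules 3 of 6 were lower than in WT with tetracycline (2.95% of all genes) and 5 of 6 with arsenite (3.84%), with medians of -0.58 and -0.56. In WDM cytosol 1 of 6 was called lower untreated (5.6% of all genes), 2 with tetracycline (6.84%) and 1 with arsenite (5.37%). There 0 were called higher, and the medians were -0.20, -0.30 and -0.27. With arsenite the pseudogenes were less enriched in granules than with tetracycline, 6 of 6 in each line (19.4% and 16.5% of all genes in WT and WDM cells), and SMG1 was not.

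In the cytosol 0 members passed the edgeR tests as scaled by TMM. Between the lines, 0 of 6 were called untreated (background 9.78% of 16670 genes), with tetracycline (12.6%) and with arsenite (10.4%). Tetracycline called 0 of 6 in WT (background 5.31%) and in WDM cells (6.3%), and arsenite 0 of 6 in WT (29%) and in WDM cells (28.8%). The tests of whether those differences differed between the lines called 0 of 6 for tetracycline (background 0.018%) and for arsenite (0%). In these 9 comparisons 0 members had an unadjusted p under 0.05 in edgeR, and DESeq2 called 0 as well. With the exon length trend removed, PRKDC, ATM and ATR were called lower with arsenite, at -0.38, -0.34 and -0.31 in WT (edgeR adjusted p 0.0123, 0.00386 and 0.0345) and -0.39, -0.29 and -0.29 in WDM cells (0.0106, 0.0118 and 0.0488). The group means of ATM, ATR and MTOR ran from 166 to 192.5, 134 to 156 and 278 to 290.1 CPM over the cytosol groups. In untreated cells PRKDC was 2219, 1995 and 2076 CPM in WT and 2499, 2417 and 2450 in WDM libraries, and TRRAP was 199.9, 184 and 208 and 249.5, 235 and 218, without overlap between the lines, at log2 differences of 0.17 ± 0.174 and 0.19 ± 0.319. ATM and ATR were also higher in WDM without overlap there, by 0.08 ± 0.076 and 0.06 ± 0.0746, while MTOR and SMG1 overlapped. The share of all genes without overlap was not counted.

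The tetracycline cytosol libraries were uneven for TRRAP, SMG1 and PRKDC. TRRAP stood at 369.7 CPM in WT replicate 1 and at 349.7 and 289.5 in WDM replicates 1 and 3, but at 138 and 156 in WT replicates 2 and 3 and at 148 in WDM replicate 2. SMG1 and PRKDC were high and low in the same libraries, ATM and MTOR followed the same split over narrower ranges (164 to 201 and 254 to 315 CPM), and ATR did not. Summed nuclear-retained RNAs, 6 listed with NEAT1 and MALAT1 the most abundant, were 645, 298 and 291 CPM in the WT and 744, 398 and 652 CPM in the WDM libraries, with the same libraries high. Their part in the result was not tested. WT replicate 1 and WDM replicate 2 were the tetracycline cytosol libraries least like their groups, and WT replicate 3 and WDM replicate 1 those of the tetracycline granules. With these 4 left out, 3 of 6 members were called between the lines, TRRAP at 1.13 (edgeR adjusted p 6.29e-06), PRKDC at 0.75 (1.71e-05) and SMG1 at 0.56 (0.00328), while the share of all genes called rose to 36.7%. The libraries then compared were the 2 WT ones with low and the 2 WDM ones with high nuclear RNA. This setting was chosen after the data were seen. Without WT replicate 1 alone, TRRAP and PRKDC were called between the lines and TRRAP and SMG1 rose with arsenite in WT cytosol (0.81 and 0.58), and without WDM replicate 2 alone PRKDC was called between the lines. The omission of the 4 libraries together also called enrichment with tetracycline lower in WDM for TRRAP, SMG1 and PRKDC (-1.53, -1.21 and -0.76), with 13% of all genes called, and each single omission called 0 members there, so the tetracycline cytosol values of these 3 genes rest on which libraries are kept.

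**Figure D4:**
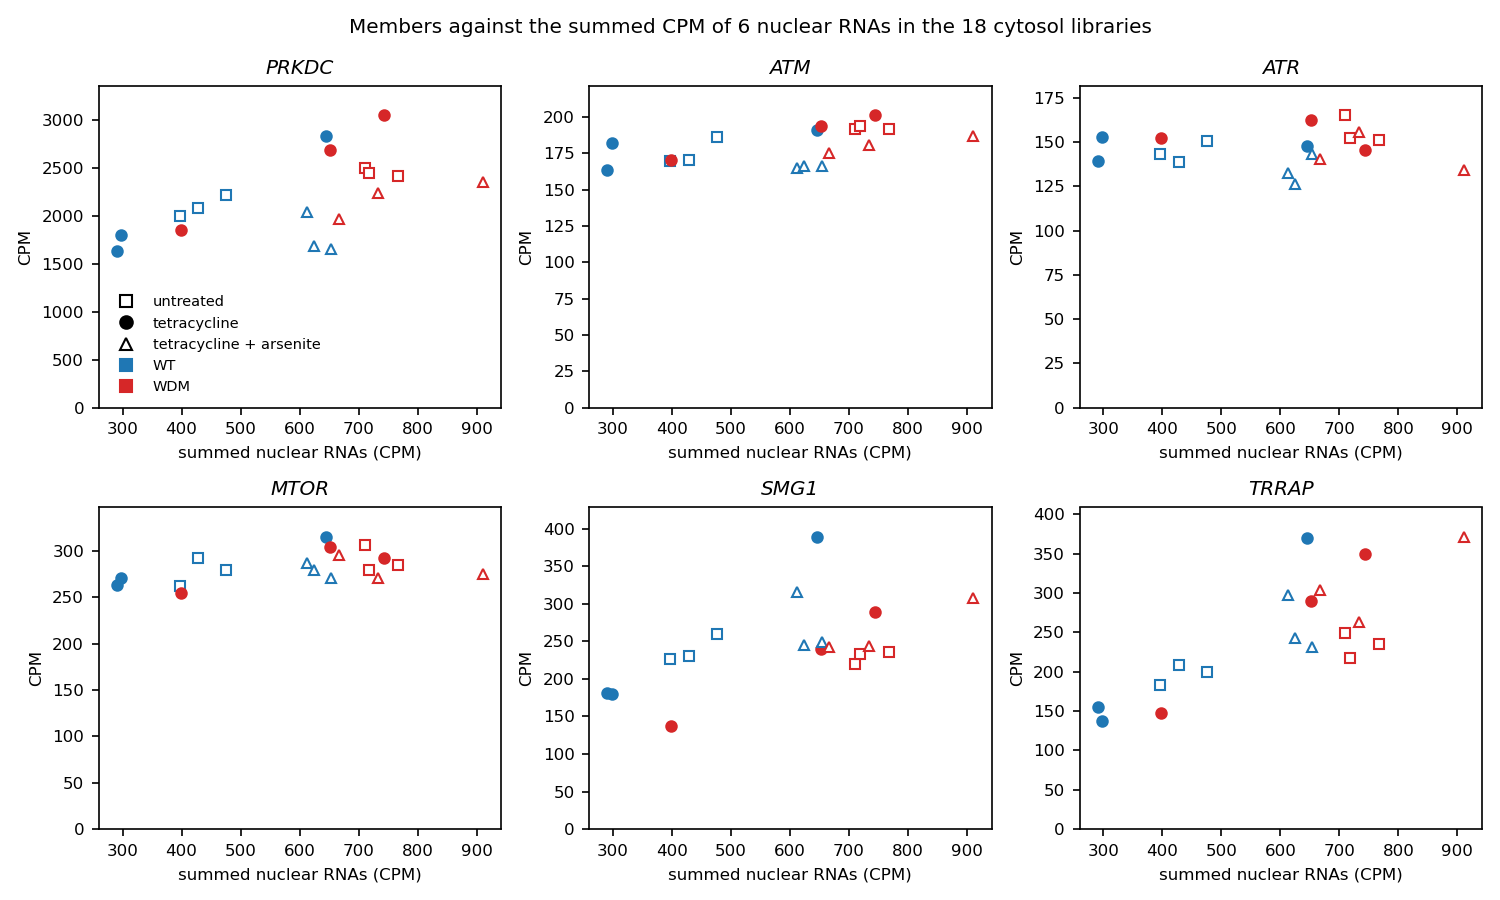
CPM of each member against the summed CPM of 6 nuclear-retained RNAs in the 18 cytosol libraries, WT in blue and WDM in red, with squares for untreated, filled circles for tetracycline and triangles for tetracycline with arsenite. The filled circles of TRRAP, SMG1 and PRKDC form a low trio at 291 to 398 CPM of nuclear RNA and a high trio at 645 to 744, while ATR shows no such split.

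The RNAs of the kinases' partners, from lists chosen with earlier results of these data known, lay on both sides of the fractions, and the log2 differences are granule over cytosol unless stated. Over all genes, 35% were called higher and 35.5% lower in arsenite-treated WT cells, and 36.3% and 35.7% in arsenite-treated WDM cells, and the counts of each list stand beside these shares. The differences moved with exon length over all genes. In arsenite-treated WT cells the median was -0.41 under 2 kb, -0.37 at 2 to 5 kb and 0.69 at 8 kb or more. The partners were not set against genes of like length, so the part of length in their differences was not tested. Among assembly co-chaperones, TTI2 was lower in granules in all 4 combinations (from -1.07 to -0.74), and RUVBL2, a helicase of the R2TP complex, had a log2 difference of -2.22 in arsenite-treated WT cells. Of 11 assembly genes, 0 were called higher and 7 lower in arsenite-treated WT and 0 and 6 in arsenite-treated WDM granules, with medians of -0.75 and -0.74. TELO2 rose in the cytosol with arsenite, by 0.39 in WT (edgeR adjusted p 0.0156) and 0.33 in WDM cells (0.0374). TTI1 was lower in WDM granules, at -0.57 with tetracycline (0.0187) and -0.74 with arsenite (0.00139), and lower in WDM cytosol with tetracycline and with arsenite.

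For DNA-PK, the RNAs of its partners lay on both sides. XRCC5 and XRCC6, which encode the Ku proteins that recruit DNA-PKcs to DNA ends, were lower in granules in all 4 combinations, XRCC6 at -2.03 in arsenite-treated WT and -2.11 in arsenite-treated WDM cells. XRCC4, a ligase partner, was higher in all 4, by 1.71 in tetracycline-treated WT cells. The end-joining list had 2 higher and 7 lower of 9 in arsenite-treated WT granules, with a median of -0.54, and 2 and 6 in WDM. On the ATM side, H2AX, which encodes the histone that ATM phosphorylates, stood at -2.21 in tetracycline-treated WT cells, and TP53BP1, a break-repair adaptor, was higher by 1.07 in arsenite-treated WT cells. That list had 2 higher and 4 lower of 10 in both arsenite comparisons. The 10 include RAD50, which had at most 28 counts in any library. Its exon sequence is shared to 76.9% with ENSG00000283782 on the same strand, so its level is uncertain. NBN, a sensor that recruits ATM, rose by 1.04 with arsenite in WT granules (edgeR adjusted p 0.000835).

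On the ATR side, 5 of 11 genes were higher and 2 lower in arsenite-treated WT granules, and 4 and 4 in WDM, with CLSPN, a replication checkpoint adaptor, at 1.05 and 1.12. ATRIP, the partner that binds ATR, was lower with arsenite, at -0.34 in WT and -0.35 in WDM cells. Of the mTOR complexes, 5 of 11 tested were higher and 3 lower in both arsenite comparisons, near the shares over all genes. RPTOR and RICTOR, the large subunits that define mTOR complexes 1 and 2, were higher in all 4 combinations, RPTOR from 1.31 to 2.04 and RICTOR from 0.55 to 1.56, and MLST8, a small shared subunit, was lower, from -1.84 to -1.56. AKT1S1 had 0 counts in every library, which was not read as absence of its RNA, since the counting settings are not given.

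The decay factors around SMG1 had 5 higher and 4 lower of 10 tested in arsenite-treated WT granules and 4 and 3 in WDM. SMG6, the decay endonuclease, was higher in all 4 combinations, from 1.52 to 1.89, and UPF1, the substrate of SMG1, from 0.39 to 0.86. SMG9, which binds SMG1, was lower with arsenite, at -0.73 in WT and -0.51 in WDM cells. SMG8 had 0 counts in every library, which was likewise not read as absence of its RNA. For TRRAP, EP400, the ATPase of the NuA4 complex, was higher in all 4 combinations, from 1.63 to 2.23, and SUPT3H, a SAGA subunit, was higher by 3.30 and 2.87 with tetracycline in WT and WDM cells, while the list as a whole had 5 higher and 5 lower of 15 in arsenite-treated WT and 5 and 6 in WDM granules. The lipid kinase relatives had 6 higher and 1 lower of 11 in arsenite-treated WT and 5 and 1 in WDM cells, with medians of 0.53 and 0.37.

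The genes whose group means were most like those of a member, by Pearson correlation of log2 CPM over the 10 groups among 11511 genes, were MGA, ADCY1 and HERC1 for PRKDC (r 0.993 for MGA), PAM, DMXL2 and PIK3CA for ATM, and HEATR1, TEX15 and TRPC1 for ATR (r 0.962 for HEATR1). For SMG1 they were CASK, KIF24 and TIAM1, and for TRRAP FOXJ3, AKAP13 and ASH1L (r 0.998 for FOXJ3). The 10 points share the step between fractions, which raises every such correlation. Over the 12 granule libraries alone, log2 CPM of ATM and ATR had r = 0.92 and of MTOR and TRRAP r = 0.93, and ATR and TRRAP had r = -0.33, given as descriptions of libraries that share depth and scaling. Within each library, ATR counts per ATM count ran from 0.718 to 0.895 in the 18 cytosol libraries and from 0.495 to 0.638 in the 12 granule libraries. The ranges did not overlap, so the ratio of these 2 damage kinases was lower in every granule library than in any cytosol library.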

How the data were processed

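RNA was sequenced from 30 libraries prepared with a stranded total-RNA kit and rRNA removal, per the labels' protocols. The deposited table holds raw read counts per gene that the authors made with Trimmomatic, STAR, Picard and featureCounts on GRCh38, per the submitters' processing notes. Their versions, the annotation release, and the strand and multi-mapping settings are not given in the sources used here. Genes passing filterByExpr (minimum count 10, minimum total 15) were tested with edgeR 4.0.16 quasi-likelihood tests in R 4.3.3, with TMM scaling and Benjamini-Hochberg adjustment over all genes of a fit at 0.05. There were 3 fits: 18 cytosol libraries (16670 genes), 12 granule libraries (18366) and 24 libraries of both fractions (18141), with 22 comparisons in all. CPM in the text used TMM scaling over all 30 libraries, and log2 differences came from each fit's own scaling. Depth of 5906167 to 27419145 counts gives a floor of 3 counts at 0.109 to 0.508 CPM, which covers counting error only. Lengths, overlaps and windows came from GENCODE v44 models on GRCh38.

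All 6 members were named. From each partner list, named genes were taken from the 2 called genes with the largest rise and the 2 with the largest fall in a comparison, and from TELO2, TTI1, TTI2, XRCC5, XRCC6, NBN, ATRIP, RPTOR, RICTOR, SMG8, SMG9, UPF1 and EP400 whatever their values. For each member except MTOR, whose result is not reported here, the 3 genes with the most correlated group means were named, as were overlapping genes and up to 3 called neighbours by nearness. The members and lists were chosen with earlier results of these data known. Replicate numbers are given in the labels without a stated meaning. Same-numbered libraries deviated together (every r over 0.1) in 5 comparisons, and there the replicate block changed 0 member calls. Each result was recomputed with DESeq2 1.42.0, with the replicate block, with RLE factors or unscaled library sizes, on unfiltered genes, after removing the trend with exon length, and without each library in turn. Removal of the trend with longest-transcript length or with GC content, and leaving out 4 tetracycline libraries that stood apart, were chosen after seeing the data. The fits were tested on simulated data.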

Additional observations from a re-analysis of the deposited data

Results flagged for a closer look

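The change of ATR granule enrichment with arsenite differed from 0 in WDM cells, at -0.52 on the log2 scale (SE 0.18, edgeR adjusted p 0.0301), since enrichment was 0.54 with tetracycline and 0.02 with arsenite. In WT cells the enrichments were 0.53 and 0.55. Whether this change of enrichment differed between the lines was not tested. Within the granule libraries alone, the line difference in the ATR arsenite response was -0.57 (edgeR adjusted p 0.301). For the change of enrichment in WDM cells, the median over all genes was -0.17, and ATR stood at the 30.5th percentile. Among tested genes with 8 kb or more of exon and under 40% GC, as ATR is, that median was -0.46. The ATR call was lost in 8 of 12 fits that each left out 1 library. It was also lost with the length trend removed (-0.17, edgeR adjusted p 0.548) and with the GC trend removed (-0.28, 0.196).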

How the results depend on the processing

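Scaling to library size alone changed 0 of 132 results per member, and no left-out single library turned a called direction. With the trend in exon length removed, members called numbered 3 for arsenite in WT and 3 in WDM cytosol (PRKDC, ATM and ATR, lower), 0 and 0 between lines in granules with tetracycline and arsenite, 2 for arsenite in WT granules, 3 for enrichment in tetracycline-treated WDM cells (ATM, ATR and MTOR, all lower, with 0 higher), and 2 and 0 for its change with arsenite in WT and WDM cells. Enrichment then stood at -0.19, -0.74, -0.86 and -0.15 for PRKDC, ATM, ATR and MTOR in tetracycline-treated WT cells and -0.43, -0.50, -0.68 and -0.36 in WDM, and for ATM, ATR and MTOR at -0.12, -0.52 and -0.0079 in arsenite-treated WT and -0.43, -0.86 and -0.024 in WDM cells. ATR was called lower in each of these combinations, and ATM in each but arsenite-treated WT cells. With the longest-transcript length trend, chosen after seeing the data, the counts were 2 and 2 for arsenite in WT and WDM cytosol and 3 (ATM lower, SMG1 and TRRAP higher) and 1 (MTOR lower) for enrichment with tetracycline in WT and WDM cells. Enrichments were -0.046, -0.31, -0.21 and -0.17 and -0.30, -0.13, -0.12 and -0.39 in the same order with tetracycline, and -0.099, -0.27 and -0.18 and -0.43, -0.64 and -0.14 with arsenite. With arsenite, ATR was called lower in both lines and ATM in WDM cells. With the GC trend removed, 0 members were called between lines in arsenite granules and 0 for the change of enrichment in WDM cells. The cause was not tested.

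RLE factors gave 0 between lines in tetracycline granules. DESeq2 gave 2 between lines in arsenite granules and 2 for arsenite in WT granules. No filter gave 2 for arsenite in WT granules, and 1 and 0 for the change of enrichment in WT and WDM cells. Without the 4 tetracycline libraries, members called were 3 and 1 between lines in cytosol with tetracycline and arsenite, 3 and 1 for tetracycline and 2 and 1 for arsenite in WT and WDM cytosol, 3 and 1 for the line differences in those responses, 0 for arsenite in WT granules, 1 for the change of enrichment in WT cells and 3 for the line difference in enrichment with tetracycline. SMG1 between lines in tetracycline cytosol was then 0.56, its line difference in the tetracycline response 0.67, and TRRAP with tetracycline in WT -0.49.

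The replicate block gave 0 between lines in tetracycline granules (SMG1 -0.61, edgeR adjusted p 0.066), where the numbers did not pair the libraries, and it changed no other call. Leaving out each library gave 0 to 2 members between lines in tetracycline cytosol, 0 to 2 for arsenite in WT cytosol, 0 to 1 and 0 to 3 between lines in tetracycline and arsenite granules, 0 to 2 and 2 to 3 for arsenite in WT and WDM granules, 5 to 6 for enrichment in tetracycline-treated WDM cells and 0 to 1 for its change in WDM cells. Member counts of at least 1162 per library leave the spread between 3 libraries, not depth, as the limit.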
